A study of Mus musculus with 2 samples.

Results

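Small leucine-rich proteoglycans are secreted matrix proteins built around a curved array of leucine-rich repeats, which most of them use to bind collagen fibrils. Several carry chondroitin, dermatan or keratan sulfate chains, and the family is known for setting the thickness and spacing of collagen fibrils and for binding growth factors such as TGF-β. In heart valves they are made by the interstitial cells and fibroblasts, and they lie in the collagen-rich and proteoglycan-rich layers of the leaflet. The 7 genes described here were taken by symbol from the 32285 genes of the count matrices. Dcn (decorin), Bgn (biglycan) and Aspn (asporin) are class I members, Lum (lumican), Prelp and Omd (osteomodulin) are class II members, and Ogn (osteoglycin, also called mimecan) is a class III member. All 7 had reads in both libraries.

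The study measured mitral valve leaflets of mouse embryos at stage E17.5 by droplet-based 3′ single-cell RNA sequencing, which counts unique molecular identifiers (UMIs) per gene and cell. The mutant library came from embryos with Nfatc1-Cre and Dicer loxp/loxp, and the control library from wild type embryos. Dicer is the RNase that cuts microRNA precursors into mature microRNAs, and Nfatc1-Cre acts in the endocardial lineage, so cells of other origins are not its targets. Each library pooled 3-4 hearts after trypsin digestion and sorting with a viability dye. With 1 library per genotype there is no replicate and no test between genotypes, and every interval below covers counting error only. Levels are UMIs of a gene per 1000000 UMIs of the cells named (CPM), and ratios are log2 of mutant CPM over control CPM with 0.5 counts added to each sum. CPM from 3′ counts are compared between cells and libraries for the same gene, and not between genes.

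After filtering, 6183 mutant cells (median 9488 UMIs) and 10347 control cells (median 5671 UMIs) remained. The libraries shared 19 cell barcodes, of which 11 were among the kept cells. Of the kept cells, 42.5% in the mutant library and 93.5% in the control library had Xist and no Y-linked transcript (female-type cells), while 37.1% of mutant cells and 1 control cell had the opposite pattern (male-type cells). Dicer1 stood at 52.5 CPM in mutant and 66.7 CPM in control stromal cells (log2 ratio -0.34), and at 39.8 and 89.5 CPM in mutant and control endothelial-like cells (log2 ratio -1.16). The exons between the loxP sites are not given in the sources used here, and 3′ reads from outside them would not show the deletion.

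Joint clustering, with the whole proteoglycan family left out of the genes that build the clusters, gave 23 clusters. Of these, 6 were stromal by their summed markers, such as Col1a1, Col3a1 and Fbln1, and they held 2389 mutant and 5183 control cells. Each is called here by its 2 leading genes. The Car3 and Prss35 cluster and the Abi3bp and Col2a1 cluster had the highest levels of the cartilage-like valve interstitial markers Matn4, Col9a1, Sox9 and Hapln1 and are called Matn4-type. The Dpep1 and Sfrp2 cluster had the highest level of the Sfrp2 and Angptl7 interstitial markers, the Ccn3 and Sct and the Dlk1 and Smoc2 clusters were fibroblast-like, and the Hist1h1b and Top2a cluster was cycling. Tagln and Acta2, which mark contractile mural cells, were among the leading genes of the Ccn3 and Sct cluster, whose mural and stromal scores were close (2.52 and 2.50 on the log2 scale). The Matn4-type clusters made up 25.5% of mutant and 44.8% of control stromal cells, so sums over all stromal cells weigh the subtypes differently in the 2 libraries.

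Decorin transcripts marked nearly every stromal cell, and their level depended on the subtype in a different order in the 2 libraries. After each cell was thinned to 2000 UMIs, 91.8% of mutant and 93.4% of control stromal cells held a Dcn UMI, against 5.08% and 6.62% of mutant and control macrophage-like cells, which are not a source of decorin. Across the stromal clusters Dcn spanned 2.3-fold in the mutant library and 3.4-fold in the control library. The lowest value was in the Ccn3 and Sct cluster, with 2089 CPM in mutant and 1711 CPM in control cells. The highest was 4785 CPM in the Dlk1 and Smoc2 cluster of the mutant library, against 5772 CPM in the Car3 and Prss35 cluster of the control library. Counting intervals of neighbours in this order overlapped for the Hist1h1b and Top2a and the Abi3bp and Col2a1 clusters in the mutant library, and for the Dpep1 and Sfrp2 and the Hist1h1b and Top2a clusters in the control library.

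**Figure D1:**
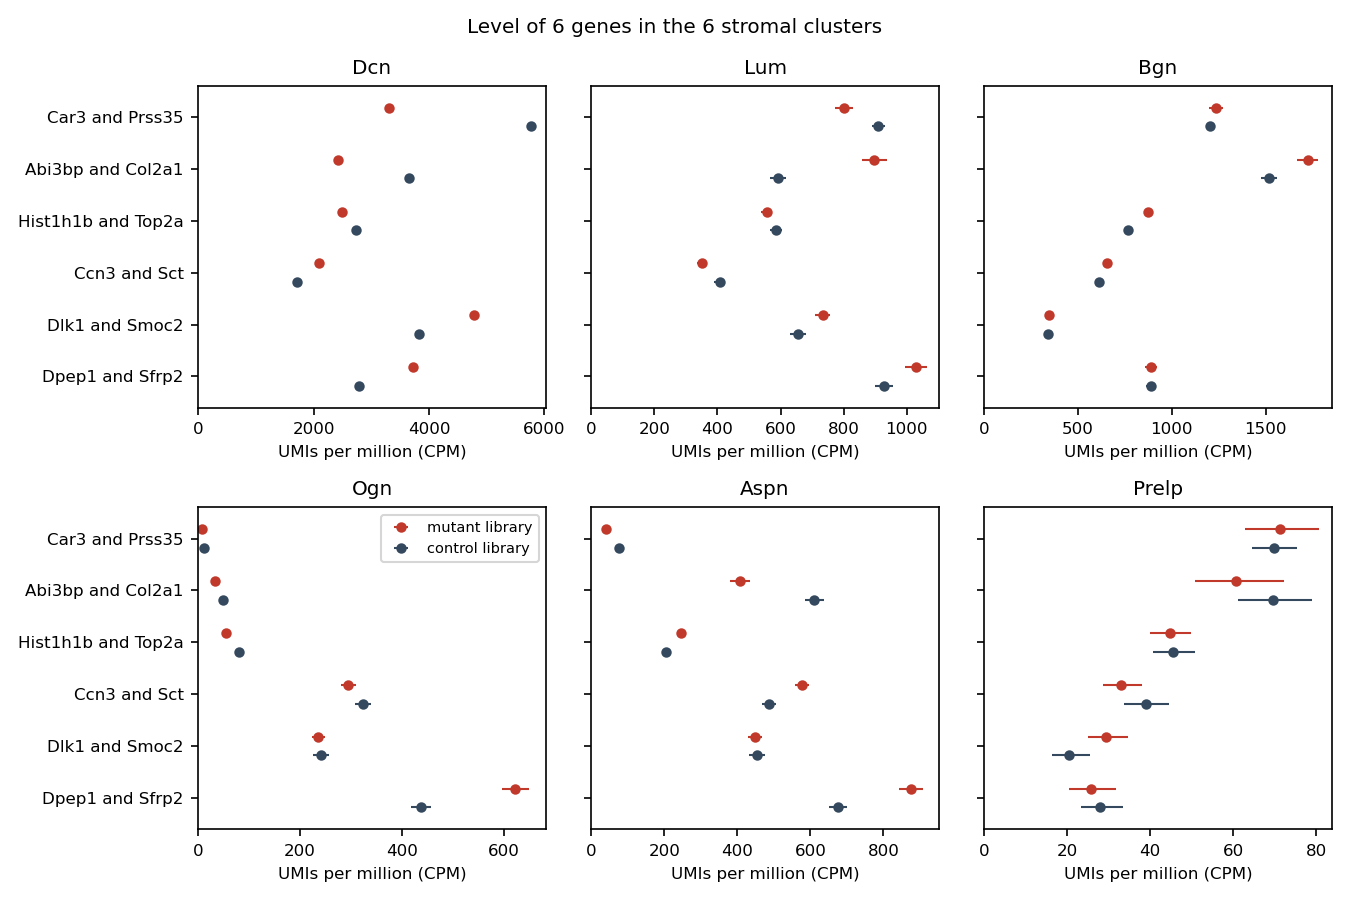
Level of 6 of the 7 genes (horizontal axis, CPM from 0, 1 panel per gene) in each stromal cluster (rows) of the mutant library (red, upper point) and the control library (dark blue, lower point), with 95% Poisson intervals as lines that cover counting error only. Dcn is lower in the mutant in both Matn4-type clusters, and Ogn and Aspn are lowest in the Car3 and Prss35 cluster of each library.

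Biglycan, the closest relative of decorin, was highest where Matn4 markers were highest. Bgn stood at 1724 CPM in mutant and 1517 CPM in control cells of the Abi3bp and Col2a1 cluster, and at 1237 and 1204 CPM in mutant and control cells of the Car3 and Prss35 cluster. It was lowest in the Dlk1 and Smoc2 cluster, with 346 CPM in mutant and 338 CPM in control cells, a span of 5.0-fold in the mutant and 4.5-fold in the control library. Both libraries thus had the same clusters at the top and at the bottom, and the cluster with the most Dcn in the mutant library had the least Bgn. Thinned to 2000 UMIs, 70.9% of mutant and 76.4% of control stromal cells held a Bgn UMI.

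Asporin, which carries no glycosaminoglycan chain and binds collagen at a site that overlaps with that of decorin, split the 2 Matn4-type clusters. In the Car3 and Prss35 cluster Aspn had 39.7 CPM in mutant and 75.4 CPM in control cells, and in the Abi3bp and Col2a1 cluster it had 406 and 611 CPM in mutant and control cells. Its highest level was in the Dpep1 and Sfrp2 cluster, at 875 CPM in mutant and 675 CPM in control cells. The span over clusters was 22.1-fold in the mutant and 9.0-fold in the control library. Intervals overlapped between the Dlk1 and Smoc2 and the Abi3bp and Col2a1 clusters in the mutant library, and between the Ccn3 and Sct and the Dlk1 and Smoc2 clusters in the control library.

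Lumican, a keratan sulfate proteoglycan of collagen-rich tissue such as cornea and tendon, had the smallest span of the 6 measurable members over the control clusters. Lum was highest in the Dpep1 and Sfrp2 cluster, at 1030 CPM in mutant and 928 CPM in control cells, and lowest in the Ccn3 and Sct cluster, at 350 CPM in mutant and 407 CPM in control cells. That span was 2.9-fold in the mutant and 2.3-fold in the control library. Control levels in the Dpep1 and Sfrp2 and the Car3 and Prss35 clusters did not differ beyond their intervals, nor did those in the Abi3bp and Col2a1 and the Hist1h1b and Top2a clusters. Thinned to 2000 UMIs, 58.7% of mutant and 58.9% of control stromal cells held a Lum UMI.

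Prelp, which can link collagen to basement membranes, and Omd, a bone-associated member, were the least represented of the 7 in UMIs. Prelp ranged over 2.8-fold in the mutant and 3.4-fold in the control library, with the Matn4-type clusters at the top. It stood at 71.4 CPM in mutant and 69.8 CPM in control cells of the Car3 and Prss35 cluster, and at 25.7 and 28.0 CPM in mutant and control cells of the Dpep1 and Sfrp2 cluster. Omd had 23 UMIs in all mutant and 40 UMIs in all control stromal cells, or 0.845 and 1.21 CPM. Intervals of the Matn4-type clusters overlapped in both libraries. At this depth no order of clusters can be read for Omd: its largest count in any stromal cluster was 17 UMIs, in the control Hist1h1b and Top2a cluster.

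Osteoglycin had the steepest gradient of the 7 genes over the stromal clusters, 90.4-fold in the mutant and 40.9-fold in the control library, with no overlap of intervals between neighbours in the order. In the Car3 and Prss35 cluster Ogn was lowest, at 6.89 CPM in mutant and 10.7 CPM in control cells. It reached 623 CPM in mutant and 437 CPM in control cells of the Dpep1 and Sfrp2 cluster. The Ccn3 and Sct cluster (295 and 323 CPM in mutant and control cells) and the Dlk1 and Smoc2 cluster (236 and 241 CPM) lay between. Thinned to 2000 UMIs, an Ogn UMI was found in 24.3% of mutant and 17.7% of control stromal cells.

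Ogn and Aspn, the members with the steepest gradients, lie on either side of Omd on chromosome 13 (GRCm38, GENCODE M21 annotation). Aspn lies at chr13:49544443-49567565, Omd at chr13:49582462-49592822 and Ogn at chr13:49608046-49624501, all on the plus strand, with 14896 bases from Aspn to Omd and 15223 bases from Omd to Ogn. Omd, between them, had the 23 and 40 UMIs given above, so the member between them was almost undetected. Dcn (chr10:97479609-97518143) and Lum (chr10:97565128-97572703) are adjacent, 46984 bases apart on the plus strand with no annotated gene between. Prelp lies at chr1:133910304-133921414 on the minus strand and Bgn at chrX:73483602-73495933 on the plus strand. The promoters of Ogn and Aspn are shown because these genes had the steepest gradients of the 7. Each is the plus strand in RefSeq's GRCm38.p6, from 250 bases before to 50 bases after the annotated start, at chr13:49607765-49608064 for Ogn and chr13:49544193-49544492 for Aspn. The Aspn window fits the GENCODE M21 start given above. The Ogn window, and positions in it, refer to a start upstream of the GENCODE M21 start given above. Capitals mark the TATA box motif TATAAA on either strand.
Ogn promoter: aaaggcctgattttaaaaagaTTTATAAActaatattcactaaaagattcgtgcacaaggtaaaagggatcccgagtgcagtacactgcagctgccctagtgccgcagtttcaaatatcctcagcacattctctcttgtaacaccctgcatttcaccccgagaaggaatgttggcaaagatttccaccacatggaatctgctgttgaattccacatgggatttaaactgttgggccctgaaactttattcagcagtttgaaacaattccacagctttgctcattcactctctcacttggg
Aspn promoter: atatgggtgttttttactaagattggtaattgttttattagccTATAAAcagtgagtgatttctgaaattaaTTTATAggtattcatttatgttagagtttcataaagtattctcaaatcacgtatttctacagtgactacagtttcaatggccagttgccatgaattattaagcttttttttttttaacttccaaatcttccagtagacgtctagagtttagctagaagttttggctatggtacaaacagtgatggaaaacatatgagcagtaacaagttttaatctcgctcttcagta
TATAAA was present on both strands in each, overlapping into a single run in Ogn, and began at position -227 in Ogn and -207 in Aspn relative to the start. It was found in 13.6% of 32851 promoters of the same length and in neither Bgn, Prelp nor Omd. The other 5 motifs were likewise searched on both strands. The AP-1 motif TGANTCA, found in 7.81% of all promoters, and the SOX motif ACAATG, found in 12.6%, were in none of the 5 promoters read. The TEAD motif GGAATG, found in 14.7%, was in Ogn alone, and the CCAAT box, found in 37.4% by its letters CCAAT, was in Aspn and Prelp. The E-box CANNTG, found in 72.3%, was in every one but Omd. The GC content was 42.3% in Ogn and 31% in Aspn, against a median of 52.7% over all promoters, and 63.7% in Bgn, 55.3% in Prelp and 37.7% in Omd. A match describes the letters only, and no promoter of Dcn or Lum was used.

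Within each library, the Dpep1 and Sfrp2 cluster was set against the Abi3bp and Col2a1 cluster, the highest in the Sfrp2 and in the Matn4 markers. Of the 5 members with a mean of at least 50 CPM, 2 were at least 2-fold higher in the mutant library, where 3.91% of all genes were that much higher and 5.12% that much lower. Ogn was higher by a log2 ratio of 4.23 and Aspn by 1.11. In the control library 1 of 5 passed, Ogn at 3.17, where 2.6% of all genes were higher and 4.41% lower, and Aspn stood at 0.14. Bgn went the other way in both, at -0.96 in the mutant and -0.77 in the control library. The clusters come from the same cells, so these contrasts are descriptions within a library. The Dpep1 and Sfrp2 cluster scored higher on fibroblast marker lists than on the Sfrp2 and Angptl7 list. Finer clustering split it into a Dpep1 and Fmo2 group (180 mutant, 205 control cells) and an Angptl7 and Sfrp2 group (153 and 524). Ogn had 853 and 345 CPM in these groups of the mutant, and 712 and 326 CPM in the control library. Aspn had 858 and 878 CPM in the mutant, and 702 and 668 CPM in the control library. The part of these group shares in the contrasts was not tested. Over the 12 values (6 clusters in 2 libraries, which share genes, depth and clustering), Ogn and Aspn had Pearson r = 0.83, Ogn and Prelp r = -0.90, Bgn and Prelp r = 0.79, and Dcn and Lum r = 0.62.

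Between genotypes, none of the 5 members tested differed 1.5-fold over the sum of all stromal cells, where 0.862% of all genes were that much higher in the mutant and 0.77% that much lower. Dcn stood at 3082 CPM in mutant and 3654 CPM in control cells (log2 ratio -0.25), Aspn at 415 and 347 CPM (0.26) and Ogn at 200.3 and 162 CPM (0.31). Lum (660 and 701 CPM, -0.09), Bgn (845 and 908 CPM, -0.10) and Prelp (41.9 and 48.5 CPM, -0.21) lay closer to parity. The median over the 7 genes was -0.10, beside -0.00 over 3248 genes. These sums partly carry the unequal subtype shares: once each cluster was given 1 common weight for mutant and control sums, the log2 ratio was 0.10 for Bgn, 0.03 for Lum, 0.07 for Ogn, 0.09 for Aspn, -0.02 for Prelp and -0.15 for Dcn. The signs of Bgn and Lum in the summed cells therefore turn with the weighting.

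Cluster by cluster, decorin differed between genotypes in opposite directions. In the Matn4-type clusters Dcn was lower in the mutant: 3315 CPM in mutant against 5772 CPM in control cells of the Car3 and Prss35 cluster (log2 ratio -0.80, 95% interval -0.83 to -0.77), and 2430 against 3651 CPM in mutant and control cells of the Abi3bp and Col2a1 cluster (-0.59, -0.63 to -0.54). In the Dpep1 and Sfrp2 cluster it was higher, at 3716 CPM in mutant and 2793 CPM in control cells (0.41, 0.38 to 0.45), and in the Dlk1 and Smoc2 cluster likewise, at 4785 and 3820 CPM in mutant and control cells (0.33, 0.30 to 0.35). The Ccn3 and Sct cluster had a log2 ratio of 0.29 and the cycling Hist1h1b and Top2a cluster -0.13. The sum over all stromal cells, at -0.25, joins these opposite values. Counting error is far smaller than these differences, but variation between embryos, litters and library preparations was not measured.

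**Figure D2:**
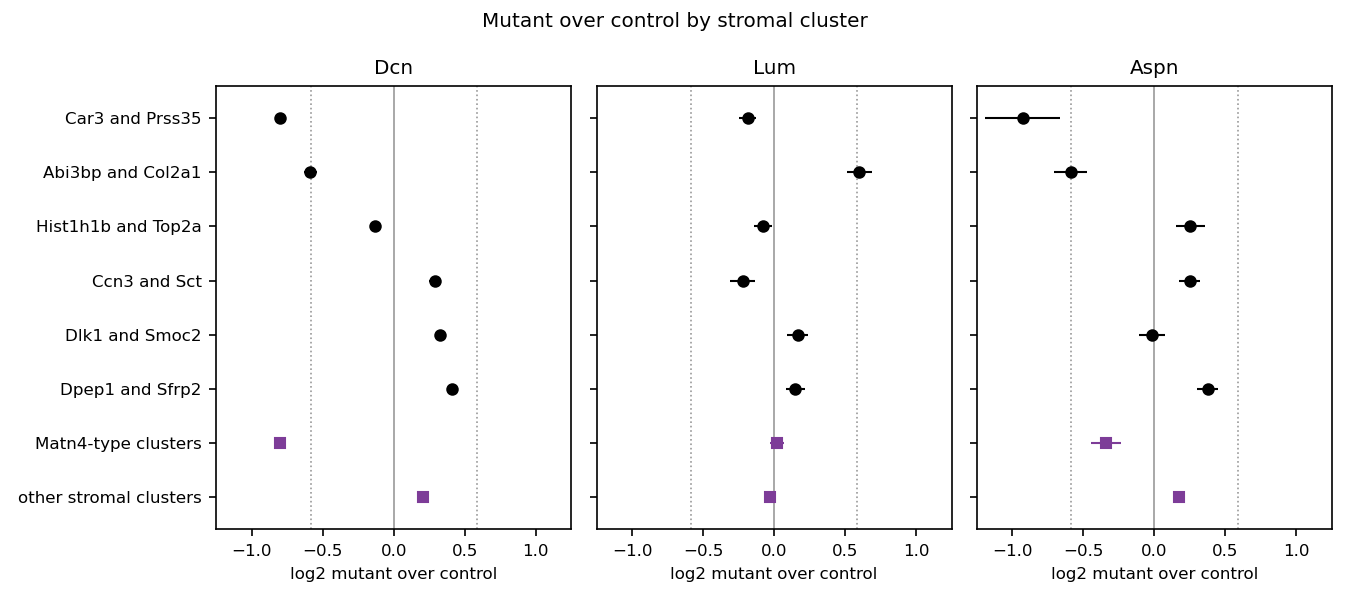
Log2 ratio of mutant over control CPM for Dcn, Lum and Aspn in each stromal cluster (black points) and in the Matn4-type and the other stromal clusters summed (purple squares), with 95% counting intervals as lines. The solid line is equal level and the dotted lines are 1.5-fold. Dcn runs from -0.80 in the Car3 and Prss35 cluster to 0.41 in the Dpep1 and Sfrp2 cluster.

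Of 30 pairs of a tested gene and a stromal cluster, 5 were at least 1.5-fold apart, all in the Matn4-type clusters. In the Car3 and Prss35 cluster, Dcn and Aspn (2 of 5) were lower in the mutant, where 1.15% of 3231 genes were that much lower and 1.18% that much higher. In the Abi3bp and Col2a1 cluster, Dcn and Aspn (2 of 5) were lower, beside 1.97% of 3398 genes, and Lum (1 of 5) was higher, beside 2% of them. The other 4 clusters had 0 of 5 in either direction. There the share of all genes was 0.415% higher and 0.474% lower in the Hist1h1b and Top2a cluster, 0.549% and 0.161% in the Ccn3 and Sct cluster, 0.194% and 0.129% in the Dlk1 and Smoc2 cluster, and 2.05% and 1.01% in the Dpep1 and Sfrp2 cluster. The 3 pairs of the Abi3bp and Col2a1 cluster lie at the limit of 0.58 on the log2 scale, with Dcn at -0.59, Aspn at -0.59 and Lum at 0.60. With female-type cells alone, Dcn stood at -0.55, Aspn at -0.48 and Lum at 0.57 there, so none of the 3 passed. Among the same cells Prelp passed in this cluster, at 41.7 CPM in mutant and 70.4 CPM in control cells (-0.75). Mutant male-type cells of this cluster went the other way, with 99.3 CPM of Prelp (0.51 against control female-type cells). All cells of this cluster together had 60.7 CPM in mutant and 69.6 CPM in control. Ogn passed in female-type cells of the cycling cluster, at 43.8 and 76.9 CPM in mutant and control cells (-0.81). Mutant male-type cells there had 66.4 CPM of Ogn (-0.21 against control female-type cells). Aspn in the cluster nearest to Abi3bp and Col2a1 ranged from -2.36 with stricter cell filters, where that cluster held 64.4% of these cells, to -0.43 without doublet removal. Dcn was past 1.5-fold and lower in the mutant in at least 1 Matn4-type cluster under each of the 4 other clusterings.

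Aspn had a log2 ratio of -0.92 in the Car3 and Prss35 cluster (interval -1.20 to -0.67) from the 39.7 and 75.4 CPM of mutant and control cells given above. When the family's own genes were allowed to build the clusters, the nearest cluster by shared cells, led by Car3 and Rtn1, held 39.8% of these cells and had an Aspn ratio of 0.02. With stricter cell filters the nearest cluster held 85.6% of them, with a ratio of -1.56. Finer clustering drew a Car3 and Rtn1 group and a Wnt16 and Col9a1 group almost wholly from the Car3 and Prss35 cluster. In the former Aspn had 64.2 CPM in mutant and 74.5 CPM in control cells (-0.21, -0.53 to 0.09). In the latter it had 17.9 and 61.7 CPM (-1.76), a mean too low to be tested. Female-type cells of the Car3 and Prss35 cluster had an Aspn ratio of -1.13. Mutant male-type cells there stood at -0.47 against control female-type cells, short of 1.5-fold. In the Dpep1 and Sfrp2 cluster Aspn was higher in the mutant by 0.37, and in the other 3 clusters it lay between -0.02 and 0.25. Lum in the Abi3bp and Col2a1 cluster, at 896 CPM in mutant and 591 CPM in control cells (0.60, 0.51 to 0.69), varied with the clustering. Its ratio was 0.87 with stricter cell filters and 0.75 in the finer clustering. Under both, Lum was also past 1.5-fold and lower in the mutant in another stromal cluster. With stricter filters this was a Sfrp2 and Abi3bp cluster, at 435 CPM in mutant and 654 CPM in control cells (-0.59). In the finer clustering it was the Car3 and Rtn1 group, at 609 CPM in mutant and 919 CPM in control cells (-0.59). With the family's genes allowed, the nearest cluster had a ratio of 0.26, and 45.8% of its cells came from the Abi3bp and Col2a1 cluster. Without doublet removal both Matn4-type clusters formed 1 cluster, with a Lum ratio of 0.02. In the other stromal clusters at resolution 0.8, Lum lay between -0.22 and 0.17. Bgn lay between -0.00 and 0.19 in all 6 clusters, and Prelp between -0.23 and 0.03 in 5 of them, with 0.52 in the Dlk1 and Smoc2 cluster from 149 mutant and 81 control UMIs.

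Ogn was 0.51 higher in the mutant in the Dpep1 and Sfrp2 cluster (0.42 to 0.60), from the 623 and 437 CPM of mutant and control cells. This cluster joins 2 groups that a finer clustering separates, in different proportions. The Angptl7 and Sfrp2 group held 153 mutant and 524 control cells, with 345 CPM of Ogn in mutant and 326 CPM in control cells (log2 ratio 0.08). The Dpep1 and Fmo2 group held 180 mutant and 205 control cells, with 853 and 712 CPM in mutant and control cells (0.26). In each group the ratio was smaller than in the joined cluster, and the same held for Dcn, at 0.16 in the Angptl7 and Sfrp2 and 0.31 in the Dpep1 and Fmo2 group against 0.41. In the cycling Hist1h1b and Top2a cluster Ogn was -0.55, at 54.9 CPM in mutant and 80.4 CPM in control cells.

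The 2 Matn4-type clusters were also summed, a grouping chosen after their values were seen. Dcn stood at 2988 CPM in 610 mutant cells and 5193 CPM in 2320 control cells, a log2 ratio of -0.80 (-0.82 to -0.77), beside 1.07% of 3282 genes lower by 1.5-fold and 1.43% higher. In the other 4 stromal clusters together it stood at 3107 CPM in mutant and 2692 CPM in control cells (0.21), where 0.188% of genes were lower by 1.5-fold and 0.25% higher. Over 6 alternatives, including finer clusters, stricter cell filters, no doublet removal, family genes allowed, cells set from markers one by one, and female-type cells alone, the Matn4-type ratio stayed between -0.84 and -0.78 and the other between 0.13 and 0.34. Summed in this way Lum was at 0.02 (-0.06 to 0.06 over the same alternatives), Bgn at 0.14 (0.11 to 0.16) and Aspn at -0.34 (-0.87 to -0.30) in the Matn4-type cells. Aspn passed 1.5-fold with the stricter filters (-0.75) and with cells set one by one (-0.87). The difference in Lum seen in the Abi3bp and Col2a1 cluster was thus not seen over both clusters.

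**Figure D3:**
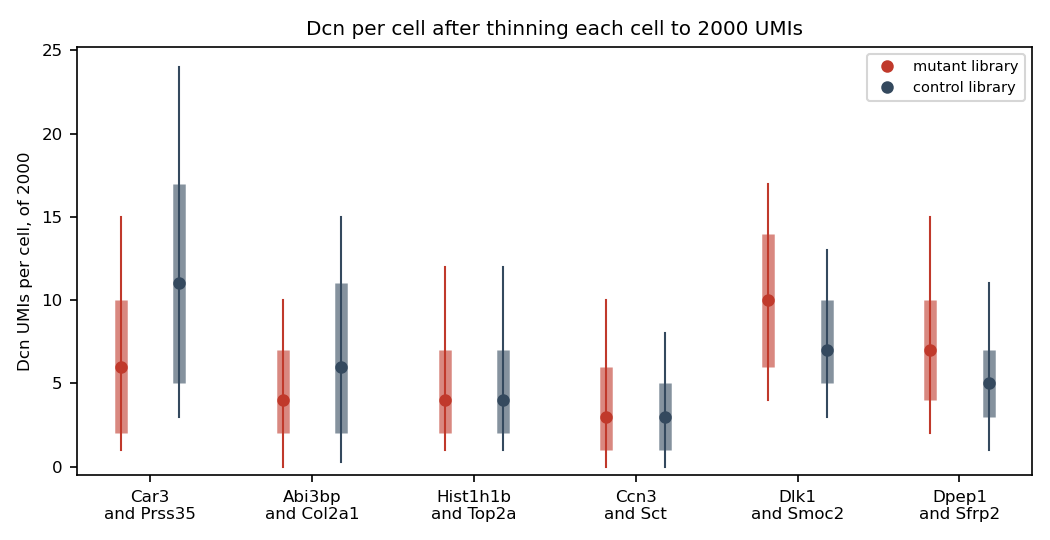
Dcn UMIs per cell after thinning each cell to 2000 UMIs, by stromal cluster, for the mutant library (red, left of each pair) and the control library (dark blue); points are medians, bars the 25th to 75th percentile and lines the 10th to 90th percentile over cells. In the Car3 and Prss35 cluster the medians are 6 in mutant and 11 in control cells, and in the Dlk1 and Smoc2 cluster 10 in mutant and 7 in control cells.

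Dcn per cell was compared at equal depth. With 2000 UMIs per cell, Car3 and Prss35 cells held a median of 6 Dcn UMIs in the mutant (10th to 90th percentile 1 to 15) and 11 in the control (3 to 24). Cells with at least 10 Dcn UMIs made up 27.1% of the mutant and 54.6% of the control cells of this cluster. In the Abi3bp and Col2a1 cluster the median was 4 in the mutant and 6 in the control and the 90th percentile 10 and 15, while the 25th percentile was 2 in both. Dlk1 and Smoc2 cells moved the other way, with a median of 10 in the mutant (4 to 17) and 7 in the control (3 to 13). In the Ccn3 and Sct cluster the median was 3 in both libraries, and in the Hist1h1b and Top2a cluster it was 4 in both. Cells of 1 library are not replicates, so this spread is over cells and not over embryos.

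The finer clustering, at a resolution of 1.5 in place of 0.8, split the stromal cells into 10 groups of at least 50 cells per library, 4 of them with high Matn4 markers. Dcn was lower in the mutant in all 4. The Wnt16 and Col9a1 group had 3830 CPM in mutant and 7853 CPM in control cells (-1.04), and the Car3 and Rtn1 group had 2710 and 3958 CPM in mutant and control cells (-0.55). The cycling cluster also came apart. Its Matn4-type group had 2521 CPM in mutant and 3814 CPM in control cells (-0.60), and its other group, led by Hist1h1b and Hist1h2ap, had 2662 and 2081 CPM (0.36). The ratio near 0 in the whole cycling cluster thus joined 2 groups with opposite signs. Among the 6 groups without high Matn4 markers Dcn was higher in the mutant in 5, and lower in the sixth, led by the contractile genes Tagln and Actg2 (923 CPM in mutant and 1121 CPM in control cells, -0.28).

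The mutant library held male-type and female-type cells, while the control library held female-type cells almost alone. The Dcn difference in the Car3 and Prss35 cluster was the same size in female-type cells, at 3306 CPM in mutant and 5752 CPM in control cells (-0.80), and mutant male-type cells stood at 3300 CPM. For Bgn, which lies on the X chromosome, mutant male-type stromal cells had 721 CPM against 969 CPM in mutant female-type cells (log2 ratio -0.43). Within clusters this ratio was smaller, from -0.31 to -0.05, and the Car3 and Prss35 and the Abi3bp and Col2a1 clusters held 84 and 67 of 879 male-type but 230 and 155 of 1120 female-type mutant stromal cells. In female-type cells the genotypes differed in Bgn by 0.10, with 969 CPM in the mutant and 905 CPM in the control. Ogn had 232 CPM in mutant male-type and 167 CPM in mutant female-type stromal cells (0.48), and within clusters its ratio went both ways, with 0.47 in the Dpep1 and Sfrp2 and 0.60 in the cycling cluster but -0.19 in the Ccn3 and Sct and -0.17 in the Dlk1 and Smoc2 cluster. In female-type cells Ogn differed by 0.05 between genotypes, with 167 CPM in the mutant and 162 CPM in the control. The Bgn and Ogn ratios over all stromal cells therefore depend on which cells of the mutant library enter, and how sex type falls over embryos is not known.

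Outside the stromal clusters, the endothelial-like cells (312 mutant and 1257 control cells) held Dcn and Lum at low levels, and both were lower in the mutant. Dcn had 84.6 CPM in mutant and 301 CPM in control cells (log2 ratio -1.83, -2.02 to -1.65), and Lum had 40.8 and 109 CPM (-1.42, -1.70 to -1.15). These were 2 of the 3 members tested, beside 2.33% of genes lower by 1.5-fold and 6.06% higher. Bgn, at 323 CPM in mutant and 289 CPM in control cells, was at 0.16. Both clusters of the class showed the lower Dcn level, with 76.0 CPM in mutant and 310 CPM in control cells of the Plvap and Npr3 cluster and 94.6 and 291 CPM in mutant and control cells of the Wnt4 and Pthlh cluster. The share of cells with a Dcn UMI after thinning was 9.93% in the mutant and 26.7% in the control, where coronary endothelial-like cells, which share the digestion, had 6.70% and 5.97%.

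Stromal RNA in these droplets was read from other stromal genes. The 12 stromal markers, of which 0 were at 0, summed to 2294 CPM in mutant and 2232 CPM in control endothelial-like cells, with Col6a3, Pdgfra and Postn lower by 1.5-fold and Fbn1, Mfap5 and Prrx2 higher. The 10 Matn4 and Col9 markers, 0 of them at 0 in either library, summed to 933 and 308 CPM in mutant and control cells, with 5 lower and Hapln1 and Acan higher. The red cell list summed to 24.6 CPM in mutant and 520 CPM in control cells. By cluster it went both ways, with 17.4 CPM in mutant and 958 CPM in control cells of the Plvap and Npr3 cluster. In the Wnt4 and Pthlh cluster it was 32.9 CPM in mutant and 16.2 CPM in control cells. There were 1.98 Dcn UMIs per Col1a1 UMI in mutant and 4.97 in control cells of the Plvap and Npr3 cluster, and 0.63 and 4.25 in mutant and control cells of the Wnt4 and Pthlh cluster. In coronary endothelial-like clusters this ratio lay between 0.41 and 0.67 in both libraries, and in macrophage-like cells it was 0.57 in the mutant and 0.48 in the control. Dcn was also uneven over cells: the top 5% of cells held 72.1% of the Dcn UMIs in the mutant and 46.6% in the control. The part of these markers and of uneven cells in the difference was not tested.

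**Figure D4:**
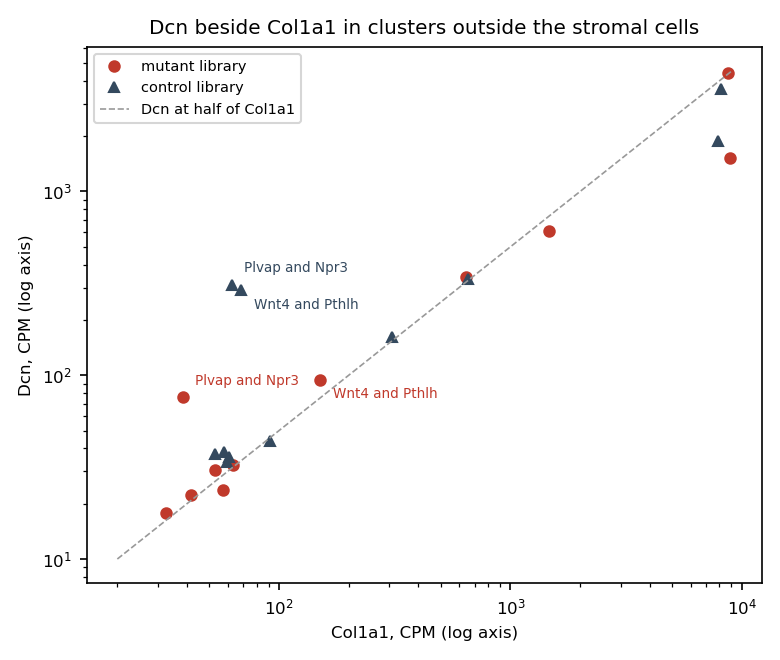
Dcn against Col1a1 (both CPM, log axes) in clusters outside the stromal cells, for the mutant library (red circles) and the control library (dark blue triangles). Only clusters with at least 50 Col1a1 UMIs in each library are shown. Clusters left out include the mast-like one, with 3 Dcn UMIs per Col1a1 UMI in mutant and 2.16 in control cells, from 13 and 25 Col1a1 UMIs. The dashed line marks Dcn at 0.5 of Col1a1. The control endothelial-like clusters lie far above the line, with 4.97 and 4.25 Dcn UMIs per Col1a1 UMI.

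Mural-like cells, which wrap small vessels, and epicardial-like cells, the outer lining of the heart, were the other classes with high levels. Mural-like cells (370 mutant and 354 control) had 344 CPM of Dcn in the mutant and 336 CPM in the control, 432 and 388 CPM of Bgn, and 501 and 481 CPM of Aspn. None of the 4 members tested there differed 1.5-fold, beside 0.613% of genes higher and 0.276% lower. Aspn in these cells was thus as high as in several stromal clusters. Epicardial-like cells, with 46 mutant and 125 control cells and so under the minimum of 50 for a comparison, had 4429 and 3623 CPM of Dcn in mutant and control cells, against 21.7 and 12.0 CPM of Aspn. Coronary endothelial-like cells had 26.6 and 35.7 CPM of Dcn in mutant and control cells, macrophage-like cells 30.4 and 43.6 CPM, and cardiomyocyte-like cells 19.3 and 37.9 CPM. In mast-like cells 3 of 3 members were lower in the mutant, where 17.6% of all genes were, from 67 mutant and 55 control cells.

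**Figure D5:**
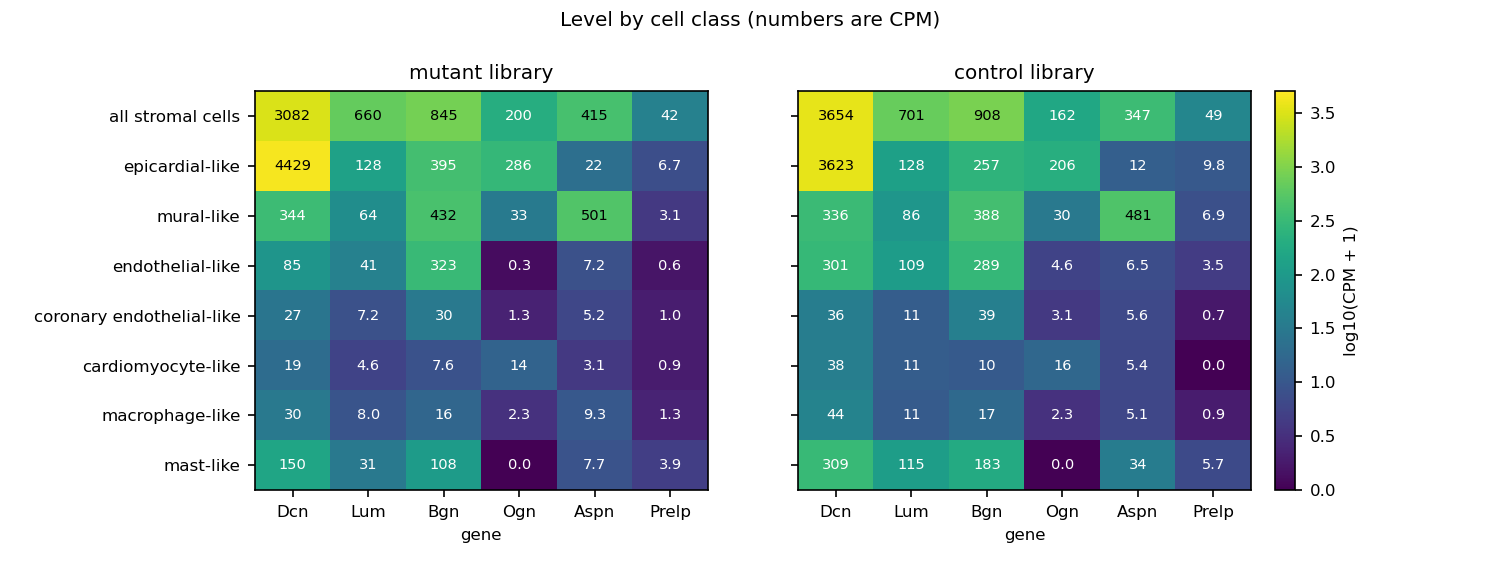
Level of 6 genes (columns) in a chosen set of named cell classes (rows), with the mutant library on the left and the control library on the right. Granulocyte-like, melanocyte-like and lymphatic endothelial-like cells are not shown. Numbers are CPM and colour is log10(CPM + 1). Of the classes shown, stromal and epicardial-like cells are highest in Dcn, and mural-like cells reach the level of the stromal sum in Aspn. Coronary endothelial-like, macrophage-like and cardiomyocyte-like cells are lowest in Dcn.

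Within single cells of the same cluster, Dcn and Lum were found together in some clusters and apart in another. In the Ccn3 and Sct cluster, after thinning, Lum was present in 45.4% of mutant cells with a Dcn UMI and 21.1% of those without, and in 47.8% and 27.0% of such control cells. In the Abi3bp and Col2a1 cluster the order was opposite: Lum was present in 54.3% of mutant cells with Dcn and 79.1% of those without, and in 50% and 69.4% of such control cells. Cells of that cluster with at most 1 Dcn UMI averaged 3.87 Lum UMIs in the mutant and 2.47 in the control, while those with at least 10 averaged 0.91 and 0.75. Both libraries had this opposite distribution in the Abi3bp and Col2a1 cluster, which the genotype ratios do not show. In the other Matn4-type cluster, Car3 and Prss35, the libraries differed. Lum was present in 70.3% of control cells with at most 1 Dcn UMI and 56.9% of those with at least 10. The shares were 62.7% and 60% of such mutant cells. By any Dcn UMI, Lum was present in 62.0% of control cells with and 58.3% of those without.

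Ogn and Aspn, which lie on either side of Omd on chromosome 13, were compared in the same way. In the Abi3bp and Col2a1 cluster, Aspn was present in 60.0% of mutant cells with Ogn and 24.2% of those without, and in 73.5% and 44.7% of such control cells, though 15 mutant and 34 control cells there held Ogn. In the cycling cluster the shares were 55.8% and 26.1% in the mutant and 47.8% and 21.5% in the control. That cluster joins finer groups with unlike Ogn levels. Its Matn4-type group had 6.31 CPM in mutant and 9.35 CPM in control cells, and the other 93.4 and 133 CPM. The part of this mixture in the shares was not tested. The Ccn3 and Sct cluster had smaller gaps, at 61.4% and 55.0% in the mutant and 57.6% and 47.8% in the control. So did the Dlk1 and Smoc2 cluster, at 59.0% and 48.8%, and 56.8% and 50.9%. The Dpep1 and Sfrp2 cluster differed by library: 70.1% of mutant cells with Ogn and 69.9% of those without held Aspn, against 66.7% and 45.7% of such control cells. Thinned shares in that cluster were 59.3% of mutant and 45.5% of control cells for Ogn, and 70.0% and 55.2% for Aspn. No test of these shares was made, since cells of 1 library share their source.

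The genes most like each member were taken over 34 points, 17 clusters in 2 libraries, among 3304 genes, by Pearson r of log2(CPM + 10). Dcn and Lum were each other's closest gene (r = 0.99), followed for both by Ptn, the heparin-binding cytokine pleiotrophin. Bgn was closest to Mfap2, Rhou and Mmp2, of which Mfap2 encodes a microfibril protein and Mmp2 a gelatinase. Ogn was closest to Spon2 (r = 0.93), Tcf21 (0.91), a transcription factor of cardiac fibroblasts, and Aspn (0.87). Aspn was closest to Tcf21, Rarres2 and Col6a1, and Prelp to Mfap4, Itih5 and Clmp. Omd had its best match with Pdgfrb at 0.68, which with its few UMIs is no finding. The points share clusters and depth, so these values describe likeness across cell types alone.

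The 11 other family genes in the matrices were mostly absent from the stroma. Fmod, fibromodulin, was at 47.1 CPM in mutant and 74.0 CPM in control stromal cells (log2 ratio -0.65). In the Abi3bp and Col2a1 cluster it stood at 264 CPM in mutant and 289 CPM in control cells, and in the Car3 and Prss35 cluster at 106 and 116 CPM, both closer to parity than the sum. Ecm2, which lies next to Aspn on chromosome 13, had 53.3 CPM in mutant and 56.1 CPM in control stromal cells, and in the Car3 and Prss35 cluster 12.4 and 26.9 CPM (-1.10). Chadl had 3.45 and 6.85 CPM and Tsku 6.95 and 6.31 CPM in mutant and control stromal cells. Chad had 0 UMIs in both libraries' stromal cells, which allows up to 0.110 CPM in the mutant and 0.0906 CPM in the control at a floor of 3 counts, and Kera, Epyc, Optc, Nyx, Podn and Podnl1 were under 1 CPM.

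Enzymes, collagens and partners of the family were counted over all stromal cells at a mean of at least 10 CPM, where 1.19% of 8571 genes were 1.5-fold higher in the mutant and 1.26% lower, with a median log2 ratio of 0.01. Of 35 genes for glycosaminoglycan attachment and chain synthesis, 27 were measured, 0 were higher and 2 lower, with a median of 0.03. The 2 were Papss2, which makes the sulfate donor (26.1 CPM in mutant and 45.0 CPM in control, -0.78), and Chst2, a sulfotransferase (21.8 and 35.9 CPM, -0.72). Xylt1, which starts the chains, stood at -0.52 and Chsy3 at 0.31, inside the limit. Of 22 collagens and cross-linking genes, 20 were measured, 0 were higher and 4 lower, with a median of 0.18. The 4 were Col2a1 (14.2 and 35.7 CPM, -1.33), Col9a3 (51.9 and 113 CPM, -1.12), Col12a1 (47.5 and 96.5 CPM, -1.02) and Col9a2 (57.3 and 88.6 CPM, -0.63) in mutant and control cells. Col2a1, Col9a2 and Col9a3 encode cartilage collagens and are themselves Matn4-type markers, whose cells were 25.5% of the mutant and 44.8% of the control stroma.

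Of 15 matrix proteases and their inhibitors, 10 were measured, 0 were higher and 1 lower, with a median of 0.08. Htra1, a serine protease that can cut decorin and biglycan, had 106 CPM in mutant and 177 CPM in control stromal cells (-0.73). Adamts5, Pcolce and Adamts1 stood at 0.51, 0.49 and 0.39, inside the limit. Of 20 receptors, growth factors and matrix partners of the proteins, 16 were measured, 1 was higher and 2 lower, with a median of 0.01. Tnxb, the matrix protein tenascin-X, had 96.0 CPM in mutant and 51.7 CPM in control cells (0.89). Tnxb is itself a marker of the Dpep1 and Fmo2 fibroblast list used to score the clusters. Igf1 had 119 and 211 CPM in mutant and control cells (-0.83) and Bmp2 stood at -0.62, while Fn1 stood at 0.57. None of the TGF-β genes was among those past the limit. All values of these lists are sums over stromal cells, which weigh the subtypes differently in the 2 libraries. They were not taken by cluster, so the part of subtype shares in them was not tested.

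Because Dicer makes mature microRNAs, the 3′ UTRs of the 7 genes (GENCODE M21, GRCm38) were searched for the heptamer that pairs with bases 2 to 8 of 11 microRNA families. The mature sequences of the 3 families whose sites are shown are from RefSeq (GRCm38.p6), with the seed in capitals, and the sites are printed with the heptamer in capitals.
mmu-let-7a-5p: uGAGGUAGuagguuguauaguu
mmu-miR-29a-3p: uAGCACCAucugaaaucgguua
mmu-miR-21a-5p: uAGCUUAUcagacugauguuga
Prelp let-7 site: actggggattagcctCTACCTCtaaggcc
Prelp miR-29 site: cggctgaaagcaaccTGGTGCTacagcct
Aspn miR-21 site: tttatgatcagttatATAAGCTttgaaga
The Prelp sites lie on the minus strand at chr1:133911628-133911634 (let-7, position 972 of the 2302 bases of its 3′ UTR) and chr1:133910808-133910814 (miR-29, position 1792). The Aspn site lies on the plus strand at chr13:49567275-49567281, position 644 of 934. Dcn and Ogn held none of the 11 heptamers. Lum held that of miR-19, Bgn those of miR-92 and of miR-15 and miR-16, Omd that of miR-21, and Prelp also that of miR-214. Over 20962 genes, the heptamer was present in 8.96% for let-7, 13.1% for miR-29, 7.14% for miR-21, 11.4% for miR-19, 6.56% for miR-92, 20.2% for miR-15 and miR-16, and 19.1% for miR-214. Prelp, with 3 of the heptamers, stood at a log2 ratio of -0.21 over all stromal cells and Aspn at 0.26. A match describes the letters, and binding was not measured.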

How the data were processed

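Single-cell RNA-seq was measured in 1 mutant and 1 control library. The deposited matrices hold UMI counts per gene and barcode, which the submitters' processing notes credit to Cell Ranger 5.0.0 and the mm10 build. The counting options and annotation release are not given in the sources used here. The mutant file held 8250 barcodes with 69475632 UMIs and the control file 12793 barcodes with 70221728 UMIs, with no barcode under 500 UMIs.

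A barcode was kept if it had 500 genes and 1000 UMIs or more, with mitochondrial UMIs under 20%. The mitochondrial limit removed 16.8% of mutant and 11.4% of control barcodes. Scrublet in scanpy 1.11.5 removed 3.44% of mutant and 3.83% of control cells as doublets. The rate expected from loading was 5.12% and 8.61%, so some doublets stay in. Cells were clustered jointly with leidenalg 0.10.2 at resolution 0.8, on 30 principal components and 15 neighbours. Of the 2000 variable genes, those of the proteoglycan family were left out. Clusters were named from marker lists without family genes. The Meg3 and Tsix cluster was kept out of the stromal class, since its median UMI count was far under its library's.

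UMIs were summed per library and cluster of at least 50 cells. Intervals are exact Poisson or Clopper-Pearson at 95% and cover counting error only, since PCR copies are removed by UMIs but cells of a library are not replicates. A gene was tested at a mean of at least 50 CPM and counted at 1.5-fold between libraries or 2-fold between subtypes. Named genes were all 7 members, all other family genes, up to 4 genes per partner list with the largest ratio at a mean of at least 10 CPM, and the 3 genes most like each member. The members, lists and markers were chosen with earlier results of these data known. The scripts were checked on simulated counts. Alternatives covered cell filters, doublets, clustering, scaling, added counts, cluster weights, sex type, thinning, floors and folds.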

Additional observations from a re-analysis of the deposited data

Results flagged for a closer look

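For 3 members, Dcn, Aspn and Lum, the genotype ratio was past 1.5-fold in a stromal cluster and had the opposite sign in another. These contrasts between clusters were not tested because there is 1 library per genotype. For Dcn the log2 ratio of mutant over control in the Car3 and Prss35 cluster minus that in the Dpep1 and Sfrp2 cluster was -1.21, and in the Abi3bp and Col2a1 cluster minus that in the Dpep1 and Sfrp2 cluster it was -0.999. For Aspn the same differences were -1.30 and -0.96. For Lum the ratio in the Abi3bp and Col2a1 cluster minus that in the Ccn3 and Sct cluster was 0.82. Each cluster past 1.5-fold was set against the cluster with the largest ratio of the opposite sign. Split by finer clustering, the Dcn ratio of 0.41 in the Dpep1 and Sfrp2 cluster was 0.16 and 0.31. The Aspn ratio of -0.92 in the Car3 and Prss35 cluster was likewise -0.21 in the Car3 and Rtn1 and -1.76 in the Wnt16 and Col9a1 group. Ogn, with no cluster past 1.5-fold, also had both signs, at 0.51 in the Dpep1 and Sfrp2 and -0.55 in the cycling cluster.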

How the results depend on the processing

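No paired analysis was possible because each genotype has 1 library, so leaving out a replicate was not possible either. The median log2 ratio over the 7 genes in stromal cells, -0.10, was -0.18 without the cycling cluster and 0.026 with common cluster weights. Without doublet removal the Matn4-type clusters merged into 1, which then stands for both. The 5 gene and cluster pairs past 1.5-fold became 2 with family genes allowed in the clustering (Dcn in both Matn4-type clusters), 2 without doublet removal (Dcn in the merged cluster and Ogn in the cycling cluster), 3 with cells set one by one from markers and 0 at 2-fold. Of members past 2-fold between the clusters highest in Sfrp2 and in Matn4 markers, 1 in the control library, the count was 2 with thinning, 2 without doublet removal (against the merged cluster), 2 with cells set one by one and 3 with family genes allowed. The median share of stromal cells with a UMI was 42.3% in the mutant and 35.0% in the control. Thinned to 1000 UMIs it was 28.2% and 22.6%, and unthinned 67.8% and 53.5%. It was 46.3% in the mutant without the cycling cluster and 36.5% in the control with cells set one by one. The 53 of all genes past 1.5-fold in stromal cells became 84 without the cycling cluster, 86 with thinning, 34 in female-type cells, 22 with common cluster weights, 7 at 2-fold, 210 with a floor of 10 CPM and 5461 with no floor. Aspn in the Car3 and Prss35 cluster, -0.92, reversed to 0.018 with family genes allowed, in the cluster nearest to it, which held 39.8% of its cells. The cause of these changes was not tested. Dcn stayed between -0.84 and -0.55 in the Car3 and Prss35 cluster and between -0.90 and -0.55 in the Abi3bp and Col2a1 cluster, and Dcn in endothelial-like cells between -2.17 and -1.31. Leaving out the cycling cluster, or adding the Meg3 and Tsix cluster, was chosen after seeing the data. Omd, with 23 mutant and 40 control stromal UMIs, is limited by depth.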

Other observations

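The Meg3 and Tsix cluster, which had stromal markers but few UMIs per cell (a median of 1546 in the mutant and 1242 in the control), made up 2.41% of mutant and 0.986% of control cells. Dcn stood there at 1512 CPM in mutant and 1893 CPM in control cells, Lum at 512 and 629 CPM and Bgn at 592 and 593 CPM. Lymphatic endothelial-like cells, 29 in the mutant and 40 in the control, held 120 Dcn UMIs in the mutant and 4 in the control, or 342 and 16.6 CPM, and both groups are under the minimum of 50 cells.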
